A study of Mus musculus with 14 samples.

Results

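The expressed zinc finger protein genes of cultured mouse epidermal cells are described here: 197 genes whose symbol is Zfp followed by a number, chosen by their level, a mean of at least 5 CPM (read counts scaled to a common library total) over all 14 libraries. They are 197 of 375 such symbols, 344 of which had a count, in a table of 55228 symbols. The least expressed members were Zfp362 with a mean of 5.08 CPM and Zfp418 with 5.04 CPM, and the nearest genes outside were Zfp691 with 4.85 CPM and Zfp976 with 4.68 CPM. The minimum used only the mean over all libraries, not the difference between regions. The family was taken up after Zfp760 and Zfp974 had been seen at lower levels in the distal region, so the values of those 2 genes are given with no test.

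The cells came from tail epidermis of mice of genotype Lrig1CreER/Rosa-TdTomato, in which an inducible Cre driven by the Lrig1 gene marks its cells with a red fluorescent protein; Lrig1 is a gene of upper hair follicle progenitors. Both groups share this genotype, the treatment entry none, the time point written as 8w pw1, a sort for the surface antigen Sca1, and 1 week of culture in keratinocyte medium. They differ in the region of origin, either a control region that the labels call non-memory (8 libraries, in 2 sets of 6 and 2) or the distal region, which they call memory (6 libraries, in 2 sets of 2 and 4). The labels give no age or sex and do not tie libraries to animals or cultures, so p-values here measure only how far these libraries spread, and that spread may be technical.

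Most Zfp genes encode proteins with arrays of C2H2 fingers, short zinc-binding loops that each read a few bases of DNA. A large part of the family, the KRAB zinc finger genes, lies in clusters of duplicated genes and carries a KRAB domain, which recruits the corepressor Trim28 and, through it, the histone methyltransferase Setdb1, largely onto transposable elements. Other members bind single-copy promoters, RNA or other proteins, and some, such as Zfp750 in terminal differentiation of the epidermis, are known for roles in keratinocytes.

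Promoter sequence is shown for 3 members on which the description turns: Zfp760, which drew attention to the family, Zfp445, whose distal levels were all below its control levels, and Zfp219, whose distal levels were all above its control levels. The sequences are the 250 bases before the RefSeq start on GRCm38.p6, on the gene's strand. Zfp760 lies at chr17:21707491-21707740 (plus strand), Zfp445 at chr9:122866007-122866256 (minus strand) and Zfp219, at the upstream one of its 2 starts, at chr14:52020734-52020983 (minus strand). Capitals mark every match, on either strand, to GGGCGG (the GC box), CCAAT (the CCAAT box) and TATAAA (the TATA box).
Zfp760: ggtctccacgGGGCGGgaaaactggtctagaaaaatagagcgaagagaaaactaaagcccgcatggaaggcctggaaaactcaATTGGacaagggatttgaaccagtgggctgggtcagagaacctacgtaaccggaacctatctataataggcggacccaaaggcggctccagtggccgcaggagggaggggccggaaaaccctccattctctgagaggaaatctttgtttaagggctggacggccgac
Zfp445: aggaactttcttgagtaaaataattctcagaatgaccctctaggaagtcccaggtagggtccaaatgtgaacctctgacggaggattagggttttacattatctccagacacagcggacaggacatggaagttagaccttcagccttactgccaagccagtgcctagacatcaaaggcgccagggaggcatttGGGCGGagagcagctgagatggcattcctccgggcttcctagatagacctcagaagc
Zfp219: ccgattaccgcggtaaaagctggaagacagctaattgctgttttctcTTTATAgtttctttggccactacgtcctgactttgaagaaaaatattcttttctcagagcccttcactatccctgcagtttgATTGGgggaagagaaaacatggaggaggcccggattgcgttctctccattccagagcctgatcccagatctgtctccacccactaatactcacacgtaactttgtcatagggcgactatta
The Zfp760 window was 54.0% G or C and held 1 GC box and 1 CCAAT box, the Zfp445 window was 50.4% and held 1 GC box, and the Zfp219 window was 45.6% and held 1 CCAAT box and 1 TATA box. That TATAAA match lies toward the upstream end of the window, away from the start. At the other Zfp219 start (chr14:52019714-52019963, not shown), the window was 70.8% G or C and held none of these boxes.

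Across the family, 162 members matched 200 RefSeq starts. A GC box was present in 45.5% of the 200 windows and a CCAAT box in 48.0%, against 32.7% and 33.9% of all 32851 windows in the table. TATAAA was present in 7.5% and 12.4%. The split by protein class was uneven: the 110 windows of KRAB members held a CCAAT box in 59.1% and a GC box in 32.7%, and the 89 windows of members without KRAB held them in 33.7% and 60.7%. These are matches of letters and not measured binding, and several windows can belong to 1 gene. A GC box was present in 9 of 19 windows of members higher in the distal region and in 27 of 50 windows of members lower in it.

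The members were expressed at low to moderate levels. Their median mean level was 16.7 CPM; 13 members averaged at least 100 CPM and 53 averaged under 10 CPM, and the 8 most abundant members held 26.1% of the summed level. Zfp207, which binds the checkpoint protein Bub3 at kinetochores, was the most abundant member with a mean of 412.9 CPM, followed by the RNA-binding protein Zfp106 with 333.9 CPM, Zfp706 with 199 CPM and Zfp266 with 196 CPM. Per kilobase of the median annotated transcript, the order of levels was Zfp106 (496 CPM per kb), Zfp706 (405), Zfp266 (256), Zfp260 (199.3) and Zfp207 (185). This second order leans on short annotated transcripts, since the median transcript of Zfp106 is 677 nucleotides long. In 20 members at least 1 library had no count.

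Zfp levels were estimated less precisely than those of other genes. The median count of a member was 100 in control and 45 in distal libraries, and its coefficient of variation between libraries had a median of 46.0% in control and 50.1% in distal libraries, against 33.0% and 33.9% over all 11757 genes tested. The median standard error (SE) of a member's log2 fold change was 0.389, against 0.275 over all genes. The members also stood at a lower level, with a median log2 CPM of 4.1 against 4.63 over all genes tested. Genes of the same level were not compared, so the lower precision is not read as a trait of the family. In addition, 25 of the 196 members with an annotated transcript had at least 95% identity over at least 300 nucleotides with another gene. In 2 of the 25 that gene overlaps the member in the genome, and in 23 it does not. Among the 23 are Zfp970, Zfp975, Zfp932 and Zfp273, whose match is Zfp85. Reads of these genes and of their matches may be shared, so their values are uncertain.

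Libraries differed in depth with the region. Totals were 4515646 to 7458872 counts in control and 2137934 to 4513518 in distal libraries, with no overlap in depth. Fold changes followed the GC content of the transcripts across all genes, and their median over the tested genes was -0.16, against which changes are to be read. Of the labelled cell type, the summed keratinocyte markers stood at 13630 to 17730 CPM in control and 18880 to 24930 CPM in distal libraries, Lrig1 at 25.9 to 58.3 and 64.6 to 90.5 CPM, and Ly6a, the gene of Sca1, at 1235 to 2582 and 1224 to 1633 CPM. The keratinocyte markers did not move one way: Krt14, Krt5, Itgb4 and Sfn were called higher, Perp, Trp63, Itga6 and Epcam lower, and the median of the 9 tested was -0.31. Markers of fibroblasts summed to 5.48 to 283 and 18.5 to 193 CPM (Lum at 0), of melanocytes to 15.4 to 47.2 and 12.6 to 40.8 CPM (Dct and Sox10 at 0), and of immune cells to 3.80 to 9.24 and 3.93 to 13.2 CPM (Cd3e, Cd3g, Cd207 and Tyrobp at 0). Endothelial markers summed to 1.88 to 9.80 and 3.84 to 9.45 CPM (Cdh5 and Emcn at 0), and Merkel cell markers to 0 to 4.47 and 0 to 10.7 CPM (Krt20 and Atoh1 at 0). Their part in the Zfp values was not tested.

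The summed level of the 197 genes was lower in the distal libraries. It was 8146 CPM ± 1337 (SD, n = 8) in control and 5397 CPM ± 1664 (SD, n = 6) in distal libraries, or 0.762% ± 0.102 (SD) and 0.576% ± 0.127 (SD) of all counts. CPM here and below uses totals scaled by TMM, edgeR's trimmed mean of M-values, which corrects for differences in composition. The same scaling was used above for the cell type markers, Lrig1, Ly6a, the CPM per kb, the share of the most abundant members and the coefficients of variation. The minimum of 5 CPM and the mean levels of members given above use plain totals. In bulk samples, fewer cells of a type and less RNA per cell cannot be told apart. The control libraries ranged from 6660 to 9962 CPM. Distal replicates 1, 2 and 6, with 2137934 to 2414631 counts, had 3941, 4290 and 4012 CPM, and distal replicate 5, with 3335486 counts, had 5265 CPM. Distal replicates 3 and 4, the deepest of the region with 4513518 and 4381280 counts, had 7788 and 7083 CPM, within the control range.

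**Figure D1:**
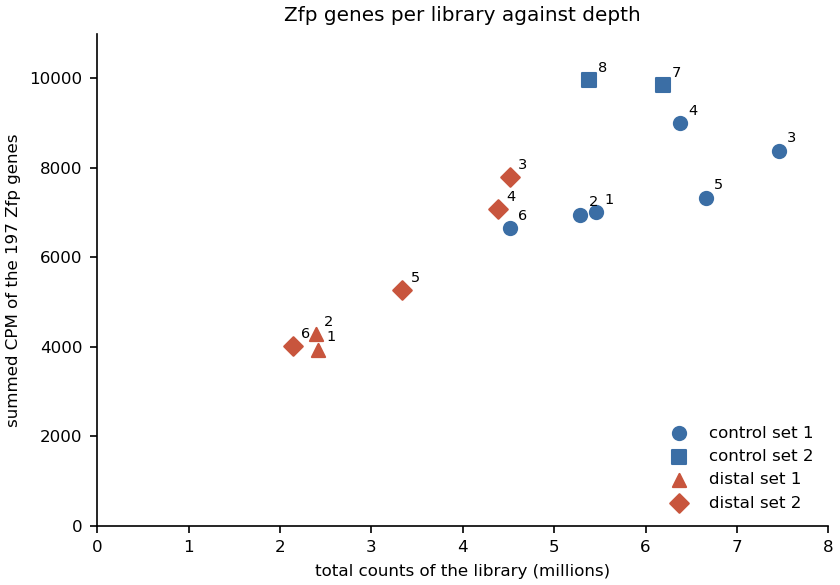
Summed CPM of the 197 Zfp genes (vertical axis) against the total counts of each library (horizontal axis), with 1 point per library, its replicate number beside it, and colour and shape giving the region and set. The 2 distal libraries above 4000000 counts lie within the control range of 6660 to 9962 CPM, and the other 4 distal libraries lie below it, at 3941 to 5265 CPM.

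To ask which members differed between the regions, the whole table was fitted with edgeR's quasi-likelihood F test, and a gene was called at a Benjamini-Hochberg adjusted p under 0.05. All 197 members passed the filter on low counts. Of them, 17 were higher and 49 lower in the distal region, so 33.5% were called, 8.63% higher and 24.9% lower. Over all 11757 tested genes, 48.3% were called, 24.3% higher and 24.1% lower. The share of members called lower was thus near the background, and the share called higher was below it. The 49 include Zfp760 and Zfp974, which had been seen to fall beforehand and reached 5 CPM on average only in the control group. Their place in the count therefore adds no support to it. The minimum favoured some calls: 16 members reached 5 CPM on average only in the control group, 10 of them called lower and 0 higher, and 13 only in the distal group, 6 of them called higher and 0 lower. Of the 168 that reached it in both groups, 11 were called higher and 39 lower. The median log2 fold change of the members was -0.63 (quartiles -1.02 and -0.01), 148 of 197 values were negative, and single values ran from -2.92 to 1.81. With upper-quartile scaling, under which the median of all genes was 0.00, 22 members were called higher and 37 lower, and the members' median was -0.47. In the 10 libraries over 4000000 counts, 8 control and 2 distal, 0 members were called higher and 9 lower, where 1243 of all genes were called. The members' median was -0.12 against -0.10 over all genes. The median varied with the setting. Thinned to the smallest total count, the libraries gave -0.58 (all genes -0.13), with 11 members called higher and 42 lower (4912 of all genes called). With log2 total count as a covariate, whose values did not overlap between the regions, it turned to 0.10 (all genes 0.00). It was -0.35 without distal set 1, -0.37 without control set 2 and -1.16 without distal set 2. Without distal set 1, 11 members were called higher and 25 lower (4070 of all genes called). With counts summed per set, 10 members were higher and 34 lower (30.5% of all genes were called), and 39 of these 44 were also called with single libraries, all in the same direction.

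The members' fold changes followed GC content. Their median transcript GC content was 45.2%, against 49.6% over all tested genes, and 138 members lay below that value. The 49 members called lower had at most 50.8% GC, and the 17 called higher had at least 53.0%, so the calls in the 2 directions did not overlap in GC content. In the lowest of 5 equal bins of GC content over all tested genes, 23 of 85 members were called lower and 0 higher, with a median of -0.80, against 1242 lower and 8 higher of 2331 genes with a median of -0.89. In the highest bin, 13 of 26 members were called higher and 0 lower, with a median of 0.76, against 1565 higher and 44 lower of 2331 genes with a median of 1.09. In the 3 bins between, from low to high GC, 0 members were called higher and 17 lower of 43 (median -0.77 against -0.57 over all genes of the bin), 0 and 8 of 27 (-0.55 against -0.17) and 4 and 0 of 15 (0.34 against 0.50). Over all genes of these bins, 38 were called higher and 924 lower of 2331, 288 and 461 of 2330, and 941 and 135 of 2331. In the middle bin, the medians with the trend removed were -0.39 and -0.03. The members' medians thus had the sign of their bin throughout, and in every bin a smaller share of them was called than of all genes.

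When the trend with GC content and transcript length was removed from each library, 4 members were called higher and 14 lower of 196 with annotation. This is to be read against 10.4% of 11654 genes called higher and 8.57% called lower. The members' median was -0.03 and that of all genes 0.03, with 105 negative values among the members. Of the 18 calls, 10 were also called in the fit with the trend, all of them lower in both: Zfp445, Zfp655, Zfp871, Zfp292, Zfp451, Zfp263, Zfp644, Zfp719, Zfp110 and Zfp507. No member was called higher in both fits. GC content, depth and region move together in these libraries and cannot be told apart.

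**Figure D2:**
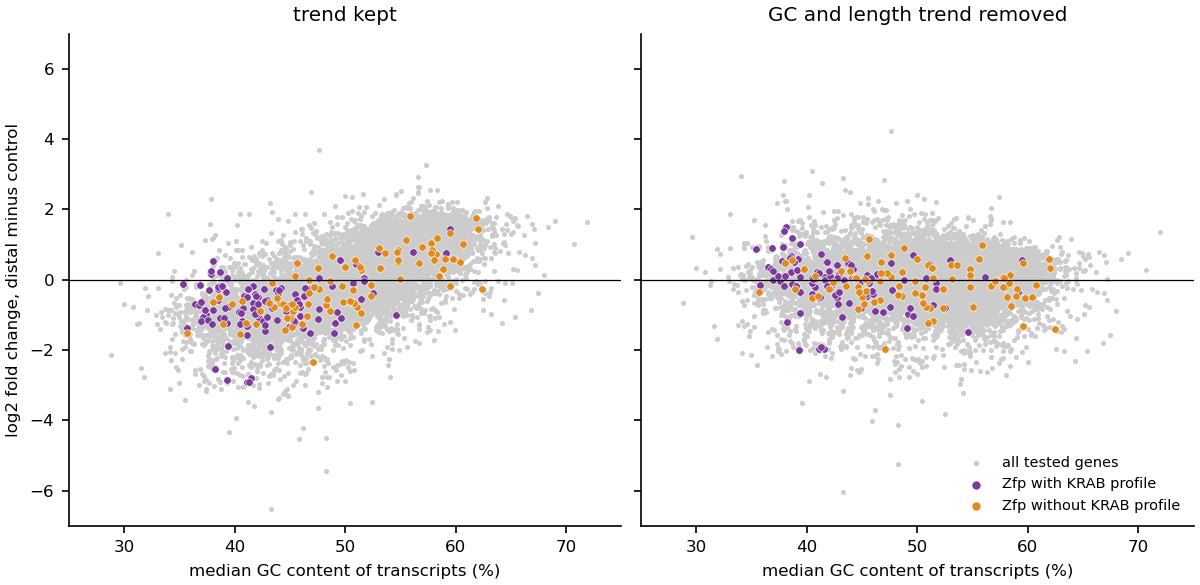
Log2 fold change, distal minus control (vertical axis), against the median GC content of a gene's transcripts in percent (horizontal axis), for all tested genes in grey, Zfp genes with a KRAB profile in purple and other Zfp genes in orange, with the trend kept on the left and removed on the right. On the left the Zfp points rise with GC content together with the grey points; on the right their median is -0.03.

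Taken by library, the members' median deviation from each gene's mean (log2 CPM) was -0.60, -0.49 and -0.61 in distal replicates 1, 2 and 6, and 0.13 and 0.12 in distal replicates 3 and 4. The control libraries ranged from -0.07 to 0.44. After the trend was removed, the distal libraries ranged from -0.19 to 0.18 and the control libraries from -0.05 to 0.28. The groups overlapped in both cases, through distal replicates 3 and 4 before the removal.

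**Figure D3:**
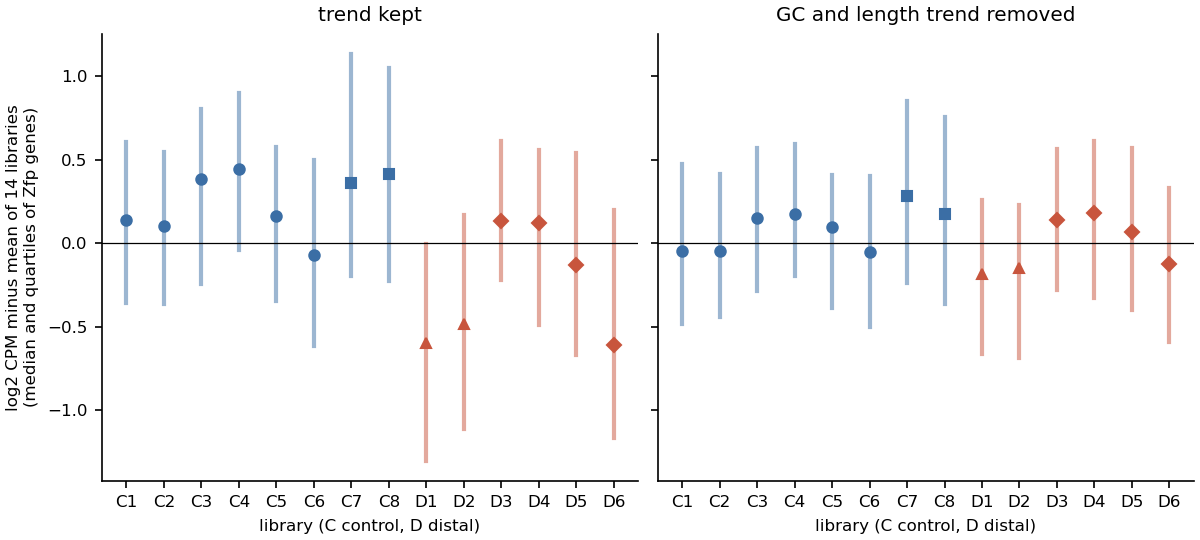
Median and quartiles over the Zfp genes of log2 CPM minus its mean over 14 libraries (vertical axis), for each control (C, blue) and distal (D, red) library (horizontal axis), with the trend kept on the left and removed on the right. Distal replicates 1, 2 and 6 stand lowest on the left at -0.60, -0.49 and -0.61; on the right all 14 medians lie between -0.19 and 0.28.

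Zfp760 (chr17:21707741-21725636, GRCm38, plus strand), a KRAB gene with 17 fingers, had 1.44 CPM in the lowest control library, a median of 10.5 and 44.0 CPM in the highest. The distal libraries had 0.683 CPM at the lowest, a median of 2.27 and 5.82 CPM at the highest. The groups overlapped: control replicates 5 and 6, with 1.44 and 2.59 CPM, lay within the distal range, and the 2 libraries of control set 2 had the highest values, 44.0 and 25.1 CPM. The means were 14.4 CPM ± 14.1 (SD, n = 8) and 2.51 CPM ± 1.87 (SD, n = 6), giving a log2 fold change of -2.55 (SE 0.695), and -1.21 (SE 0.675) with the trend removed.

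Zfp974 (chr7:27907392-27929460, GRCm38, minus strand), with 21 fingers and no KRAB profile found in its longest annotated coding sequence, was at 0 CPM in the lowest control library, with a median of 11.1 and a highest value of 35.2 CPM. In the distal libraries it ran from 0 through a median of 2.51 to 4.21 CPM. Control replicates 1, 6 and 7, with 1.89, 0 and 0.532 CPM, lay among the distal values, and control replicate 8 was the highest library. The means were 11.4 CPM ± 11.7 (SD, n = 8) and 2.20 CPM ± 1.73 (SD, n = 6), giving a log2 fold change of -2.34 (SE 0.923), and -1.98 (SE 0.914) with the trend removed. Without distal set 2, which leaves distal replicates 1 and 2 at 0.349 and 0 CPM, it was -5.82.

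The largest falls past the threshold were in genes of the same low level and wide spread. These 6 genes reached the minimum of 5 CPM only through the control group, so the choice of members favoured their direction and their p-values add no support to it. Zfp85, a KRAB gene in the cluster on chromosome 13, ran from 0 through a median of 7.58 to 42.8 CPM in control and from 0 through 0.545 to 4.41 CPM in distal libraries. It was at 0 in control replicate 5 and in distal replicates 1, 3 and 5, so the groups overlapped, and its log2 fold change was -2.92 with SE 1.09 (edgeR adjusted p = 0.0346). Zfp970, Zfp975 and Zfp951 had log2 fold changes of -2.91, -2.85 and -2.81 from control means of 9.99, 11.3 and 10.6 CPM. Zfp599 and Zfp606 followed with -1.92 and -1.57. All 6 are KRAB genes, their groups overlapped, and with the trend removed none passed the threshold (edgeR adjusted p 0.0794 to 0.648). limma-voom called none of the 6 (adjusted p 0.0506 to 0.394). Single libraries also decided calls: that of Zfp85 was lost without control replicate 4 (-2.03) or 8 (-2.79) or distal replicate 1 (-2.55), 2 (-2.75), 3 (-2.50) or 5 (-2.52), and that of Zfp970 without control replicate 8 (-2.59) or distal replicate 3 (-2.62), 4 (-2.49), 5 (-2.56) or 6 (-2.77). The call of Zfp975 was lost without control replicate 3 (-2.63) or 8 (-2.49) or distal replicate 1 (-2.57), 2 (-2.57), 4 (-2.52) or 6 (-2.64). Zfp606 lost its call in 10 of 14 cases (all but control replicates 2, 5 and 7 and distal replicate 2), with values of -1.59 to -1.16.

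Better measured falls came from genes at 34.4 to 160.2 CPM in control. In 8 members every distal library lay below every control library, which 5.65% of all tested genes did: Zfp292, Zfp719, Zfp871, Zfp451, Zfp945, Zfp445, Zfp277 and Zfp644. Zfp871 (chr17:32765496-32788287, GRCm38, minus strand), a KRAB gene with 15 fingers, ran from 121.8 through 151.6 to 211 CPM in control and from 44.1 through 57.9 to 70.0 CPM in distal libraries. The lowest control library was thus well above the highest distal one. Its log2 fold change was -1.45 with SE 0.157 (edgeR adjusted p = 2.87e-06), and -0.51 with SE 0.149 (edgeR adjusted p = 0.0219) with the trend removed.

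Zfp445 (chr9:122844529-122866006, GRCm38, minus strand), a KRAB protein that guards methylation at imprinted genes, ran from 126 through 157 to 197 CPM in control and from 42.3 through 60.4 to 84.9 CPM in distal libraries. The 2 highest distal libraries were replicates 3 and 5, with 84.9 and 76.3 CPM, still below the lowest control library. Its log2 fold change was -1.37 with SE 0.171 (edgeR adjusted p = 8.23e-06), -0.89 with SE 0.159 (edgeR adjusted p = 0.000856) with the trend removed, and -1.25 (edgeR adjusted p = 0.0091) in libraries over 4000000 counts only, where 2 distal libraries remain.

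Zfp451 (chr1:33761545-33814595, GRCm38, minus strand), a SUMO ligase, ran from 96.2 through 125 to 147 CPM in control and from 30.9 through 41.2 to 76.5 CPM in distal libraries. Distal replicate 3 was the highest of its region. The log2 fold change was -1.42 with SE 0.2 (edgeR adjusted p = 2.25e-05), and -0.83 with SE 0.167 (edgeR adjusted p = 0.00199) with the trend removed.

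Zfp292 (chr4:34803113-34882960, GRCm38, minus strand), a large DNA-binding protein, ran from 87.7 through 144.5 to 176 CPM in control and from 27.6 through 42.0 to 83.6 CPM in distal libraries. The gap between the groups was narrow, between 83.6 CPM in distal replicate 3 and 87.7 CPM in control replicate 1. The log2 fold change was -1.55 with SE 0.244 (edgeR adjusted p = 7.07e-05), and -0.51 with SE 0.173 (edgeR adjusted p = 0.0459) with the trend removed.

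Zfp644, a partner of the histone methyltransferases Ehmt1 and Ehmt2, averaged 80.4 CPM ± 15.9 (SD, n = 8) in control and 37.7 CPM ± 9.56 (SD, n = 6) in distal libraries and fell, at -1.08 on the log2 scale with SE 0.185 (edgeR adjusted p = 0.000144) and of -0.50 with the trend removed (edgeR adjusted p = 0.03). Zfp277, which interacts with Polycomb proteins, fell from 103 CPM ± 22.6 to 43.3 CPM ± 8.49, a log2 fold change of -1.25 with SE 0.179 (edgeR adjusted p = 2.7e-05). Unlike Zfp644, it lost its call with the trend removed, at -0.27 (edgeR adjusted p = 0.435), and kept it in libraries over 4000000 counts only, at -1.34 (edgeR adjusted p = 0.0119). Zfp719 fell from 39.1 CPM ± 16.9 to 13.6 CPM ± 6.35 and Zfp945 from 34.4 CPM ± 6.36 to 13.2 CPM ± 5.28, with log2 fold changes of -1.51 and -1.37. With the trend removed, Zfp719 stayed past the threshold at -1.36 (edgeR adjusted p = 0.01), and Zfp945 did not, at -0.14 (edgeR adjusted p = 0.778).

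In 4 members all distal libraries exceeded all control libraries, which 12.7% of all tested genes did: Zfp36, Zfp335, Zfp219 and Zfp771. Zfp771 and Zfp219 reached the minimum of 5 CPM only through the distal group, which favoured their direction, so their p-values add no support to it. Zfp771 (chr7:127244274-127254803, GRCm38, plus strand), with 8 fingers, ran from 1.11 through 3.06 to 4.96 CPM in control and from 7.27 through 9.60 to 16.8 CPM in distal libraries. Distal replicate 1 was the highest. The log2 fold change was 1.81 with SE 0.375 (edgeR adjusted p = 0.000755), and 0.98 with SE 0.351 (edgeR adjusted p = 0.0582) with the trend removed.

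Zfp219 (chr14:52006077-52020733, GRCm38, minus strand), a cofactor of Sox9 in cartilage, ran from 1.92 through 2.63 to 6.22 CPM in control and from 8.44 through 11.7 to 14.9 CPM in distal libraries. Its log2 fold change was 1.75 with SE 0.365 (edgeR adjusted p = 0.000793), and 0.60 (edgeR adjusted p = 0.26) with the trend removed. Zfp335, a component of a histone H3K4 methyltransferase complex, ran from 5.47 through 13.04 to 19.8 CPM and from 24.4 through 31.6 to 52.7 CPM. It rose by a log2 fold change of 1.33 with SE 0.274 (edgeR adjusted p = 0.000739), and had 0.48 (edgeR adjusted p = 0.196) with the trend removed.

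Zfp36 (chr7:28376784-28380253, GRCm38, minus strand) encodes tristetraprolin, which binds AU-rich elements and speeds the decay of cytokine mRNAs, and holds no C2H2 finger. It ran from 26.8 through 33.3 to 44.0 CPM in control and from 49.3 through 63.8 to 72.7 CPM in distal libraries. The deep distal replicates 3 and 4, with 70.4 and 49.3 CPM, were spread over the distal range. Its log2 fold change was 0.86 with SE 0.161 (edgeR adjusted p = 0.000333), 0.81 (edgeR adjusted p = 0.0567) in libraries over 4000000 counts only, and 0.30 (edgeR adjusted p = 0.179) with the trend removed. The other large rises were Zfp213 at 1.46, Zfp513 at 1.45, Zfp276 at 1.18, Zfp319 at 1.12 and Zfp692 at 1.04, from control means of 2.87 to 5.99 CPM; all but Zfp319 reached the minimum only through the distal group, with the same limit. Their groups overlapped and none passed with the trend removed. Zfp213 lost its call without distal replicate 5 (1.30), Zfp276 without control replicate 5 (1.08) or distal replicate 6 (1.17), and Zfp692 without control replicate 3 (1.03), 4 (0.98), 5 (1.00) or 6 (1.01) or distal replicate 2 (0.78) or 5 (1.05).

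**Figure D4:**
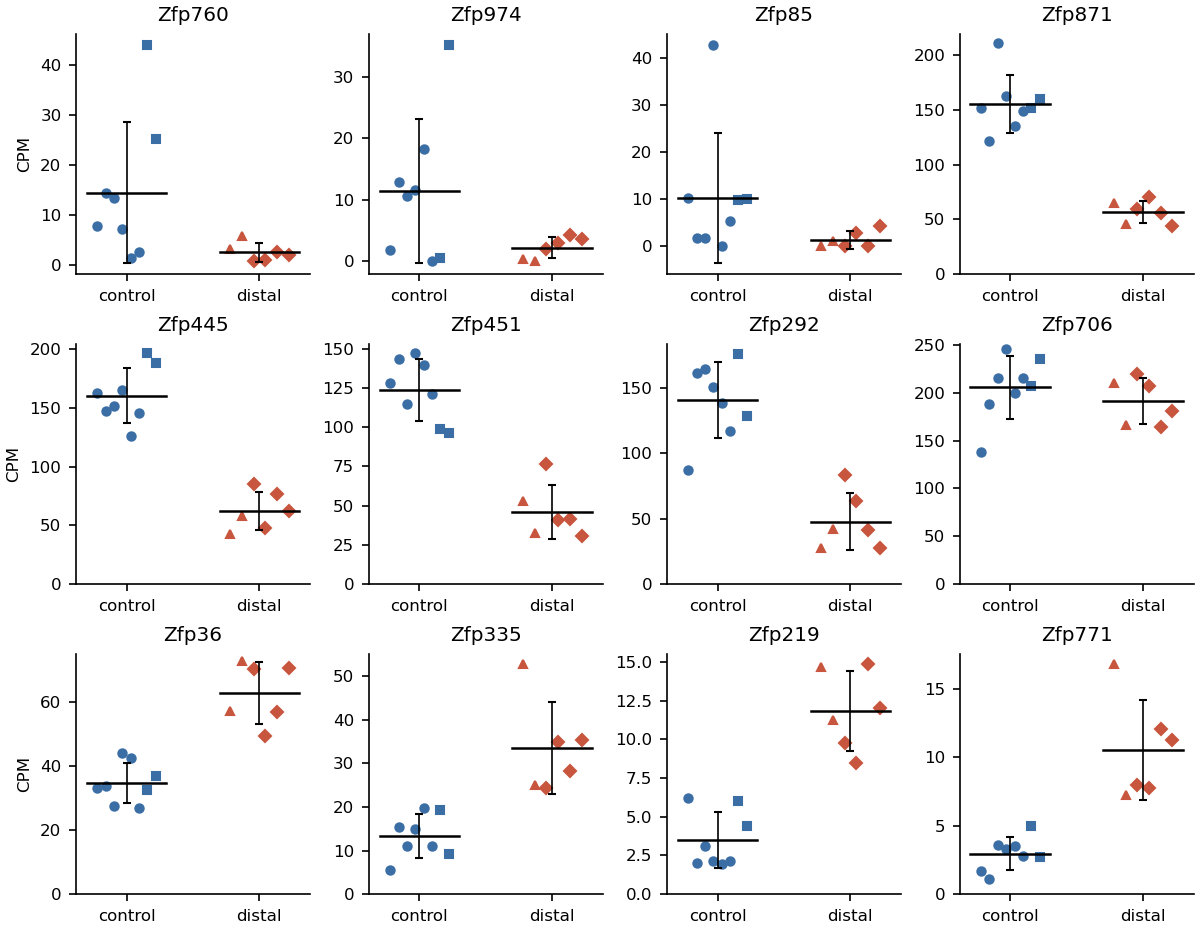
TMM-scaled CPM per library (vertical axis) of 12 Zfp genes in control and distal libraries, with shapes for the set within each region, a line at the mean and bars of 1 SD. Zfp760, Zfp974 and Zfp85 overlap between the regions, Zfp871, Zfp445, Zfp451 and Zfp292 lie wholly below control in the distal region, Zfp706 overlaps, and Zfp36, Zfp335, Zfp219 and Zfp771 lie wholly above it.

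The abundant members moved unequally. Zfp207 ran from 387 through 509.8 to 658 CPM in control and from 196 through 280.2 to 456 CPM in distal libraries. The groups overlapped through distal replicates 3 and 4, with 403 and 456 CPM. The log2 fold change was -0.69 with SE 0.187 (edgeR adjusted p = 0.00543), and 0.06 (edgeR adjusted p = 0.818) with the trend removed. Zfp106 had 361 CPM ± 23.5 (SD, n = 8) and 303 CPM ± 72.8 (SD, n = 6), giving a log2 fold change of -0.25 that did not pass (edgeR adjusted p = 0.152). Zfp266, Zfp26 and Zfp948, KRAB genes, fell by 0.94, 1.08 and 1.17 on the log2 scale (edgeR adjusted p = 0.000767, 0.00181 and 0.00817), and none of them passed with the trend removed. Zfp52 and Zfp317 did not pass in either fit (-0.34 and -0.45; 0.59 and 0.12 with the trend removed).

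Zfp706 had 206 CPM ± 33.1 (SD, n = 8) in control and 191 CPM ± 24.0 (SD, n = 6) in distal libraries, with overlapping ranges and a difference of -0.10 on the log2 scale (edgeR adjusted p = 0.558). With the trend removed its value turned to 0.63 with SE 0.133 (edgeR adjusted p = 0.00285). It is one of the 4 members called higher in that fit, beside Zfp120 at 1.49, Zfp622 at 1.17 and Zfp330 at 0.67 (edgeR adjusted p = 0.0426, 0.00699 and 0.0287). Zfp622 is a factor of large ribosomal subunit assembly and Zfp330 a nucleolar protein. None of the 4 passed with the trend kept (0.53, 0.49 and 0.12 for the last 3). The largest falls with the trend removed were Zfp251 at -1.50, the pseudogene Zfp125 at -1.42, Zfp703 at -1.40, Zfp719 at -1.36 and Zfp110 at -1.02. Of these, Zfp719 and Zfp110, a factor that interacts with the neurotrophin receptor, also passed with the trend kept, at -1.51 and -1.08.

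By protein class, 110 members matched a KRAB profile, 85 did not, and 2, Zfp125 and Zfp267, had no annotated coding sequence. The KRAB members had a median of 12 fingers and a median transcript GC content of 42.1%, against 8 fingers and 49.97% for the others. Zfp142 held the largest number, 37, and 7 members held none. Of the 110 KRAB members, 26 were lower and 3 higher in the distal region, with a median of -0.79. Of the 85 others, 22 were lower and 14 higher, with a median of -0.21. The 26 include Zfp760 and the 22 include Zfp974, which had been seen to fall beforehand. Both classes also hold called members that reached the minimum through 1 group only. Over all tested genes 24.1% were called lower and 24.3% higher, so the share called lower was near the background in both classes. Once the trend was removed the counts were 6 lower and 1 higher for KRAB members and 7 and 3 for the others (8.57% and 10.4% of all genes), with medians of -0.01 and -0.09, so the order of the classes' medians turned. Within the members without KRAB, the 58 with 5 or more fingers had 11 higher, 16 lower and a median of -0.18, and the 27 with 0 to 4 fingers had 3 higher, 6 lower and a median of -0.27. The difference between classes was not tested.

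The members sat on 20 chromosomes, with 34 on chromosome 7, 32 on chromosome 17 and 17 on chromosome 13. Joining members with gaps of at most 500000 bases gave 6 runs of 5 or more. The largest was on chromosome 17 (chr17:21008903-23564238, GRCm38), 22 KRAB genes from Zfp160 to Zfp213 that include Zfp760. It had 5 members called lower, 1 higher (Zfp213) and a median of -0.89, and 0.01 with no call when the trend was removed. The 5 include Zfp760, which had been seen to fall beforehand, and Zfp213 reached the minimum only through the distal group. The calls of these genes add no support. Over all tested genes, 24.1% were called lower and 24.3% higher, and 8.57% and 10.4% with the trend removed, so the share called lower was near the background. Between the sets of 1 region the same 22 genes had medians of 0.87 (control set 2 minus set 1) and 1.09 (distal set 2 minus set 1), sizes like that between the regions.

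The run on chromosome 13 (chr13:67312998-67827002, GRCm38) held 9 KRAB genes, among them Zfp85 and Zfp273. It had 3 called lower, 0 higher (24.1% and 24.3% of all tested genes) and a median of -1.16. The 3 include Zfp85, which reached the minimum only through the control group, so its call adds no support. In the fit without the trend the median of the run was -0.66, the lowest of the 6 runs, with no call. Distal set 2 minus distal set 1 gave these 9 genes a median of 1.52, and 1.17 with the trend removed, further from 0 than the difference between the regions. A run of 5 members without KRAB on chromosome 7 (chr7:127233061-127885996, GRCm38; Zfp553, Zfp771, Zfp629, Zfp668 and Zfp646) had the only positive median, 0.75, and 0.04 with the trend removed. The run that holds Zfp974 and Zfp36 (chr7:27731389-28380253, GRCm38) had a median of -0.69 and 0.10, the one on chromosome 9 -0.88 and -0.17, and the second on chromosome 17 -0.45 and 0.20.

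**Figure D5:**
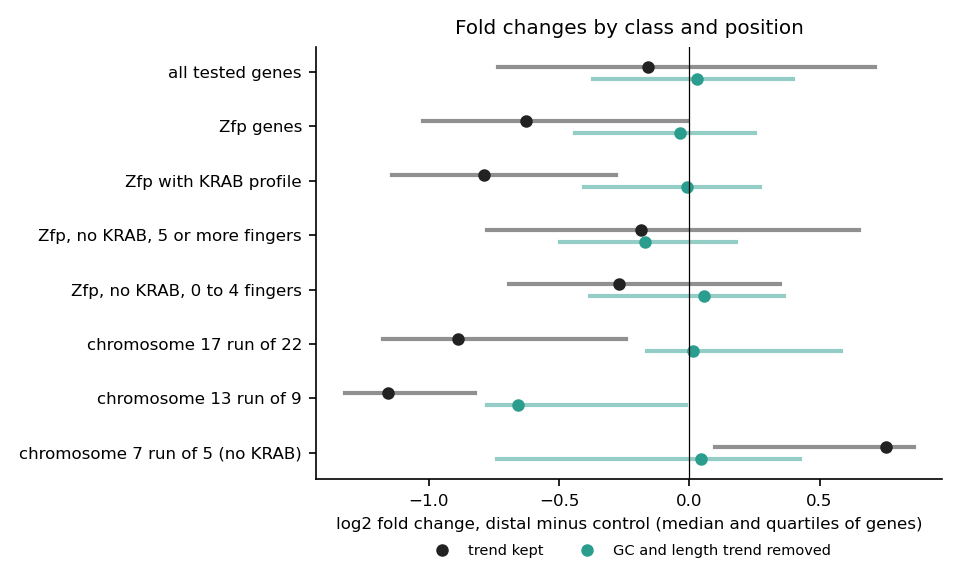
Median (point) and quartiles (bar) of log2 fold changes, distal minus control (horizontal axis), for all tested genes, the Zfp genes, their protein classes and 3 chromosomal runs (vertical axis), with the trend kept in black and removed in green. With the trend kept the KRAB class stands at -0.79 and the chromosome 7 run at 0.75; with it removed they stand at -0.01 and 0.04, and the chromosome 13 run stays lowest at -0.66, a value smaller in size than the 1.17 between the distal sets.

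Of 13 members with known roles on RNA or other proteins, 2 were higher and 5 lower, where 24.3% and 24.1% of all tested genes were. Zfp36 (above) and Zfp598, a ubiquitin ligase that acts on collided ribosomes, rose; Zfp598 went from 18.7 CPM ± 4.77 to 28.0 CPM ± 7.52 (log2 fold change 0.58, edgeR adjusted p = 0.0354), and turned to -0.27 (edgeR adjusted p = 0.393) with the trend removed. Zfp207, Zfp451, Zfp638, Zfp318 and Zfp91 fell. Zfp638, which recruits silencing to unintegrated retroviral DNA, went from 82.2 CPM ± 26.0 to 35.2 CPM ± 14.3 (-1.22, edgeR adjusted p = 0.00112). Zfp318, which allows IgD mRNA to be made in B cells and which reached the minimum only through the control group, had -1.34 (edgeR adjusted p = 0.0216), and the ubiquitin ligase Zfp91 -0.88 (edgeR adjusted p = 0.00254). The call of Zfp598 was lost without control replicate 1 (0.54), 2 (0.57), 5 (0.52) or 6 (0.55) or distal replicate 5 (0.54), and that of Zfp318 without control replicate 8 (-1.16) or any distal replicate but 6 (-1.25 to -1.01). Zfp106, Zfp326, Zfp346, Zfp622, Zfp830 and Zfp330 did not pass (-0.50 to 0.49). Once the trend was removed, Zfp451 was the one member of this list that still passed in the lower direction, and Zfp622 and Zfp330 passed in the higher.

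Of 21 members known for transcription or chromatin, 2 were higher, Zfp335 and Zfp219, and 7 lower, against the same background of 24.3% and 24.1%: Zfp292, Zfp644, Zfp277, Zfp143, Zfp131, Zfp148 and Zfp24. Zfp143, an activator bound at promoters, fell from 43.9 CPM ± 15.6 to 18.2 CPM ± 5.11 (log2 fold change -1.26, edgeR adjusted p = 0.000688). Zfp148 had -0.69 (edgeR adjusted p = 0.0256), a call lost without control replicate 4 (-0.55) or distal replicate 1 (-0.58), 2 (-0.61), 5 (-0.60) or 6 (-0.46). In the fit without the trend, 0 were higher and 4 lower: Zfp703, Zfp292, Zfp644 and Zfp609, a partner of the cohesin loader, at -0.79 (edgeR adjusted p = 0.0446). Zfp750, the regulator of terminal epidermal differentiation, did not pass in either fit. It ran from 33.5 through 81.9 to 93.2 CPM in control and from 58.6 through 85.3 to 143 CPM in distal libraries, with a log2 fold change of 0.38 with SE 0.255 (edgeR adjusted p = 0.23).

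Of 4 KRAB members with established targets, Zfp445 fell and the other 3 did not pass. Zfp568, which silences a placental promoter of Igf2, had 24.4 CPM ± 7.58 and 25.3 CPM ± 4.49 (log2 fold change 0.06, SE 0.23). Zfp809, which silences murine leukaemia virus, had 61.3 CPM ± 24.1 and 46.2 CPM ± 27.7 (-0.40, SE 0.337). Zfp932, which binds an endogenous retrovirus class together with its near-identical neighbour Gm15446, had 74.1 CPM ± 61.7 and 49.6 CPM ± 40.1 (-0.56, SE 0.513). With SEs of 0.23 to 0.513, smaller changes in these 3 could not be seen.

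The partners of KRAB proteins did not move one way. Of 26 genes in the corepressor list, 25 passed the filter, 3 were higher and 8 lower (24.3% and 24.1% of all tested genes), with a median of -0.32; with the trend removed it was 4 and 5 (10.4% and 8.57%), with a median of -0.04. Trim28, the KRAB corepressor itself, rose from 60.3 CPM ± 12.6 (range 43.7 to 77.8) to 128 CPM ± 19.2 (range 108 to 148), with no overlap between the regions. Its log2 fold change was 1.08 with SE 0.158 (edgeR adjusted p = 3.2e-05), and 0.63 with SE 0.149 (edgeR adjusted p = 0.00654) with the trend removed. Mbd3 of the NuRD complex rose by a log2 fold change of 1.81, and 0.73 with the trend removed (edgeR adjusted p = 0.0075). Setdb1 fell, at -0.97 and -0.58 (edgeR adjusted p = 0.000695 and 0.0413), as did Mphosph8 of the HUSH complex, at -1.31 and -0.55 (the second edgeR adjusted p = 0.0161). Hdac2 and Atrx had -1.22 and -1.24, and did not pass with the trend removed (-0.38 and -0.48, edgeR adjusted p = 0.0815 and 0.0882).

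The sets within a region show how far the members varied with no change of region. Control set 2 against control set 1 gave 0 called members, with 22 at an unadjusted edgeR p under 0.05 (18 higher and 4 lower) and a smallest adjusted p of 0.316. Distal set 2 against distal set 1 also gave 0, with 28 at an unadjusted edgeR p under 0.05, all higher in set 2, and a smallest adjusted p of 0.598. limma-voom called 0 in both. Of all genes, 0% were called in both comparisons, and 8.24% and 7.83% had an unadjusted p under 0.05, against 11.2% and 14.2% of members. The members' medians were 0.25 and 0.57, against 0.04 and 0.05 over all genes. With the trend removed, 0 members were called in both, and the medians were 0.18 and 0.37, against -0.0007 and 0.02 over all genes. An unadjusted edgeR p under 0.05 was then found for 10.2% and 9.18% of members, against 8.61% and 5.39% of all genes. Between the regions, the members' median with the trend removed was -0.03. Depth overlapped between the distal sets. Set 1 had 2414631 and 2389341 counts, and replicates 3 to 6 of set 2 had 4513518, 4381280, 3335486 and 2137934. The part of depth in these medians was not tested.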

How the data were processed

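RNA of small pools of sorted and cultured cells was made into cDNA with Smart-Seq2 and into libraries with Nextera XT, per the labels' protocols. The 14 libraries are columns of 1 deposited table of raw counts by gene symbol; reads were aligned with HISAT2 and counted with featureCounts on mm10/GRCm38, per the submitters' processing notes. The strand setting, the handling of reads that match several genes and the annotation release are not given in the sources used here, so overlapping, antisense and near-identical genes are uncertain. Groups came from the labels and sets from the sample descriptions; each set holds libraries of 1 region only. No 2 libraries held identical values.

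The fit used edgeR 4.0.16 under R 4.3.3 (filtered with filterByExpr, scaled with TMM, robust quasi-likelihood F test, two-sided, Benjamini-Hochberg over all tested genes, threshold 0.05). The SE was taken from the fold change and the F statistic (size of the log2 value over the root of F). To remove the trend, each library's deviation of log2 CPM (prior count 2) from the gene mean was regressed on natural splines (4 degrees of freedom each) of median transcript GC content and log2 length from the GENCODE annotation of GRCm38, and the fit entered as offsets; 99.1% of tested genes had a GC value. Sets were compared in a model of 4 sets. The code was tested on simulated counts.

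C2H2 fingers were counted by the spacing of Cys and His in translated GENCODE coding sequences. KRAB was found with a profile (pyhmmer 0.12.3) built from windows of 41 residues in 125 proteins and searched at an E value under 0.001. Runs join members at most 500000 bases apart. Promoter windows are from RefSeq GRCm38.p6.

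The members and gene lists were chosen with earlier results of these data known. Named genes are Zfp760 and Zfp974, the 8 most abundant members, the 8 largest rises and falls past the threshold, the 5 largest of each with the trend removed, the members of 3 role lists, the genes nearest the minimum, up to 4 members with an outlying library and 6 corepressor genes with the smallest p; Zfp260, Zfp263, Zfp655, Zfp507, Zfp945, Zfp871, Zfp142 and the genes of chromosomal runs or sequence pairs were named after their values were seen. Alternatives were other scalings, DESeq2 1.42.0, limma-voom (limma 3.58.1), other filters, counts summed per set, thinned counts, a replicate block, and leaving out each library and set. Reads carry no molecular identifiers, so counts understate the error of a single library.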

Additional observations from a re-analysis of the deposited data

Results flagged for a closer look

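Single libraries stood apart from the rest of their region in 53 of 394 member and region combinations (13.5%), against 2219 of 23514 (9.44%) over all tested genes; 51 were high and 2 low. Chance gives about 1 in 20 only for values without skew, so the share is not read as a trait of the members. They fell mostly in control replicates 7 (10) and 8 (8) and distal replicates 3 (10) and 4 (8). Among the genes named in the report these were 13 values, each further from its neighbour than the range of its group allows (Dixon's test).

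In control libraries, Zfp871 had 211 CPM in replicate 3 (others 121.8 to 162.4) and Zfp85 42.8 CPM in replicate 4 (others 0 to 10.2). Control replicate 7 was highest for Zfp719 with 76.4 CPM (others 23.8 to 45.3), Zfp599 with 48.6 CPM (others 4.64 to 19.4), Zfp687 with 30.9 CPM (others 5.17 to 17.2) and Zfp442 with 29.8 CPM (others 0 to 3.70).

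In distal libraries, replicate 3 was highest for Zfp958 with 169 CPM (others 10.03 to 35.1), Zfp24 with 48.3 CPM (others 14.2 to 25.8) and Zfp975 with 6.83 CPM (others 0 to 1.40). Zfp384 had 26.2 CPM in replicate 1 (others 10.4 to 12.4), Zfp983 25.1 CPM in replicate 4 (others 0.699 to 4.41), Zfp442 17.4 CPM in replicate 5 (others 0 to 6.16) and Zfp318 12.4 CPM in replicate 6 (others 1.37 to 5.33). Without distal replicate 3, the log2 fold change of Zfp958 went from -0.28 (edgeR adjusted p = 0.675) to -1.38 (edgeR adjusted p = 0.00284). Zfp384, Zfp975 and Zfp983 are among the members with a near-identical relative, and Zfp85 is the match of Zfp273.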

How the results depend on the processing

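The counts of called members kept within 1.5 times of 17 higher and 49 lower under the size factors of DESeq2 (17 and 52), upper-quartile scaling (22 and 37), the DESeq2 Wald test (19 and 62), limma-voom (16 and 37), a minimum mean of 5 CPM for all genes (22 and 44) and without control set 2 (17 and 35). Leaving out 1 library gave 14 to 22 higher, 33 to 55 lower and 4911 to 5842 of all genes, and 0 to 0 in the set comparisons. The number of members higher was 9 with no filter on low counts, 10 with counts summed per set (3582 of all genes called), 11 in thinned counts, 11 without distal set 1, 7 without distal set 2 and 10 for members at 10 CPM or more. Without control set 1 it was 4, with 31 lower and 2267 of all genes. Without distal set 1, 25 were lower, with 4070 of all genes called. With the trend removed there were 4 higher, 14 lower and 2208 of all genes (2205 where the trend was fitted without the members, again with 4 and 14); on set sums this was 0, 1 and 313. Chosen after seeing the data, libraries over 4000000 counts gave 0, 9 and 1243, these with the trend removed 0, 0 and 26, and log2 total count as a covariate 1, 6 and 952. Settings that leave out libraries or sum sets also leave fewer libraries. The cause of these differences was not tested.

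Replicate numbers 1 to 6 are shared by the regions. Deviations of same-numbered libraries had correlations of -0.017 to 0.114, which cannot show whether libraries shared an animal or a batch. The sample descriptions number the libraries otherwise: distal replicates 1, 2 and 3 are numbers 3, 5 and 1 of their sets. Pairing by those numbers was not tested. A replicate block gave 17 higher, 41 lower and 5365 of all genes; with the trend also removed, 4, 12 and 2003.

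Of 2600 values of 77 named genes under alternatives, 2159 kept direction and side of the threshold, or passed in neither fit (172 values in 29 genes changed sign there), 362 lost the call, 46 gained it, 6 moved (Zfp760 and Zfp974) and 27 changed sign with a call in either fit. With the trend removed these were Zfp207 (0.058, and 0.056 fitted without the members), Zfp706 (0.63 and 0.63), Zfp598 (-0.27 and -0.27) and Zfp148 (0.057 and 0.055). On set sums with the trend removed they were Zfp276 (-0.18), Zfp606 (0.10), Zfp598 (-0.39), Zfp148 (0.27) and Zfp131 (0.024). With the block and the trend removed they were Zfp207 (0.11), Zfp706 (0.67), Zfp948 (0.21), Zfp692 (-0.11) and Zfp598 (-0.25). In libraries over 4000000 counts with the trend removed they were Zfp207 (0.27), Zfp266 (0.016), Zfp26 (0.13), Zfp692 (-0.39), Zfp598 (-0.18), Zfp91 (0.058), Zfp148 (0.22) and Atrx (0.046), and with the total count as a covariate Zfp148 (0.19). Zfp760 had -4.11 in the libraries over 4000000 counts, -3.87 with the covariate and -0.38 with the block and the trend removed. Counts of 45 for a median member in a distal library limit most single-gene statements.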

Other observations

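Other zinc finger families with a mean of at least 5 CPM can be set beside the Zfp genes. Over all tested genes 24.3% were called higher and 24.1% lower, and 10.4% and 8.57% with the trend with GC content and length removed. Of 28 Zbtb genes, which pair fingers with a BTB domain, 2 were higher and 7 lower in the distal region, with a median log2 fold change of -0.41, and 1 and 2 with a median of -0.13 when the trend was removed. Of 11 Zkscan and Zscan genes, which carry a SCAN domain, 0 were higher and 5 lower (median -0.55), and 0 and 1 with the trend removed (-0.06). Of 12 Zc3h genes, whose CCCH fingers bind RNA, 2 were higher and 6 lower (-0.49), and 0 and 2 with the trend removed (-0.05).

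The 10 Klf genes, a family of GC-box binding factors with roles in epidermal differentiation, had 0 higher and 6 lower, with a median of -0.67. With the trend removed they had 0 higher and 4 lower and a median of -0.56, against -0.03 for the Zfp genes. The difference between the families was not tested.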
